A study of Mus musculus with 6 samples.

Results

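The genes described here are the members of the 4 mammalian Hox clusters, Hoxa, Hoxb, Hoxc and Hoxd, as measured in the pancreas of mouse embryos at E13.5. They were taken as every array row annotated with exactly 1 symbol made of a cluster name and a number from 1 to 13, with 1 row per gene, and this gave 37 of the 19938 genes tested: 10 Hoxa, 9 Hoxb, 9 Hoxc and 9 Hoxd genes. Each of the 37 had 1 such row. Hoxb8, which had no row of its own, is not analysed here as a member. The mutant embryos were Pdx1-Cre; Ctnnb1 tm1Mmt/+, in which Cre recombinase made from the Pdx1 promoter removes exon 3 of 1 copy of Ctnnb1 and so leaves a β-catenin that escapes degradation and keeps canonical Wnt signalling on. The controls were labelled wild type, both genotypes were collected at E13.5, and the labels name no treatment for either. RNA was taken from whole dissected pancreata, 3 per pool, and 3 pools of each genotype were hybridized to 1 Affymetrix Mouse Gene 1.0 ST array each. Cre in this line acts in the Pdx1 domain of the epithelium, whereas each pool also held the mesenchyme, nerves, vessels and mesothelium of the organ. In such bulk samples, fewer cells of a type and less RNA per cell cannot be told apart.

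Hox genes encode homeodomain transcription factors that give cells their position along the head-to-tail axis. Within a cluster the genes lie in the order of their expression along that axis, so that low-numbered genes are expressed towards the head and high-numbered genes towards the tail, and genes with the same number in different clusters are paralogs, descended from a common ancestor. Along the gut they are expressed in nested domains, largely in the mesenchyme. Retinoic acid, Wnt, FGF and the Cdx factors turn the clusters on, Polycomb and trithorax proteins keep them off or on, and HOX proteins bind DNA together with the TALE homeodomain proteins of the PBX, MEIS and PREP families. In the text below, paralog groups 1 to 3 are called anterior, 4 to 8 central and 9 to 13 posterior.

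The clusters also carry microRNA genes, whose mature forms are shown because each family shares a seed (bases 2 to 8, in capitals) across clusters and several Hox transcripts are among their known targets. Sequences are those of RefSeq (GRCm38.p6). Mir10a, which lies in the Hoxb cluster between Hoxb4 and Hoxb5, and Mir10b, which lies beside Hoxd4, have the seed ACCCUGU. The 3 Mir196 genes, which lie in the Hoxa, Hoxb and Hoxc clusters, have the seed AGGUAGU.
miR-10a-5p (chr11:96317186-96317208, + strand): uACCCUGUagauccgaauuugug
miR-10b-5p (chr2:74726074-74726096, + strand): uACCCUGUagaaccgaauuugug
miR-196a-5p (chr11:96265187-96265208, + strand): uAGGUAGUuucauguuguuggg
miR-196b-5p (chr6:52230129-52230150, - strand): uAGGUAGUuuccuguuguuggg
The array rows of these genes measure the hairpin transcript and not the mature form. By limma, 0 of the 6 microRNA genes of the clusters passed the test and 0 had an unadjusted p under 0.05, and their log2 changes ranged from 0.01 to 0.16. The mean array values of 5 of the 6 lay under the lower quartile of all gene means (5.44, log2), and all 6 lay under the median. No detection calls were used, so it is not known whether these rows were above background, and small changes there do not show unchanged transcripts. Mir196a-1 had the smallest p among them, with a log2 change of 0.13 (standard error 0.11, limma adjusted p = 0.549).

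Of the 7 Hox genes that passed the test, 3 have a promoter in the RefSeq table used here, and the 250 bases before their starts are shown so that a gene that rose, Hoxb4, can be read beside Hoxa5 and Hoxd3, which fell. Capitals mark TAAT on either strand (written TAAT or ATTA), the core that homeodomain proteins bind.
Hoxb4 (chr11:96318017-96318266, + strand): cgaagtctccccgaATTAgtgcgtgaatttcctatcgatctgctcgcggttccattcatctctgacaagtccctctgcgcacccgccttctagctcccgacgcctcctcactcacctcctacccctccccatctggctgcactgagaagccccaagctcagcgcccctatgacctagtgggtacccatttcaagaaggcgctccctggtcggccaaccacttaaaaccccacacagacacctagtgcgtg
Hoxa5 (chr6:52204588-52204837, - strand): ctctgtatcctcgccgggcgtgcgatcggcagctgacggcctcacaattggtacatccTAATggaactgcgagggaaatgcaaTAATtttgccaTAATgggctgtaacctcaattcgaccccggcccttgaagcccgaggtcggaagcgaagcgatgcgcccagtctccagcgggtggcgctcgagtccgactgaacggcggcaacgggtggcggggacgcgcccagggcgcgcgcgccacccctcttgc
Hoxd3 (chr2:74711743-74711992, + strand): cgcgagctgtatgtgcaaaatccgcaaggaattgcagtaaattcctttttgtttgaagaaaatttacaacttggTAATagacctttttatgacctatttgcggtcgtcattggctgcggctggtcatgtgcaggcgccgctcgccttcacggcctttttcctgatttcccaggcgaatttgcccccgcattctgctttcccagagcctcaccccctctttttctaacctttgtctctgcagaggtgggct
The window of Hoxa5 held 3 matches and those of Hoxb4 and Hoxd3 held 1 each. TAAT was found in 15 of the 21 measured Hox genes with a promoter entry and in 54.9% of all 32851 promoters searched. Here and for the motifs below, a Hox gene counted if any of its promoter entries matched, whereas the share over all promoters is per entry. The 2 are thus not like for like. The core bound by TCF and LEF factors, which carry the Wnt signal to DNA, was searched as CTTTGA on both strands and was found in 3 of the 21 (Hoxa10, Hoxd8 and Hoxd12) against 13.8% of all promoters. A site for HOX with PBX, searched as TGATNNAT, was found in 3 of the 21 (Hoxa2, Hoxb1 and Hoxd11) against 7.68%, and a CDX-type site, searched as CAATAAA, in 0 of the 21 against 4.2%. None of these last 3 motifs was found in the windows of Hoxb4, Hoxa5 or Hoxd3. These matches describe letters in the windows and are no evidence of binding.

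A run of 4 neighbouring Hoxb genes, Hoxb2, Hoxb3, Hoxb4 and Hoxb5, were higher in the mutant pools, by 1.26- to 1.66-fold, while Hoxa5, Hoxc5 and Hoxd3 were lower, by 1.37- to 1.69-fold. No Hox gene outside the Hoxb cluster was called higher and no Hoxb gene was called lower. By limma, with a threshold of 0.05 on the adjusted p, 4 of the 37 Hox genes (10.8%) were thus higher and 3 (8.11%) were lower, against 6.59% higher and 7.53% lower (14.1% in either direction) among all genes tested, so over all array levels these shares lie close to the background. Among genes above the median array level, 6 of 10 Hox genes were called against 22.5% of all genes, and above the lower quartile 7 of 21 against 20.8%. The median log2 change of the 37 genes was 0.14, against 0.03 over all genes tested, and 28 of the 37 (75.7%) had a positive change, against 57.5% of all genes. The median was 0.09 without mutant pool 2, and among genes above the median array level it was 0.03, against 0.03 over all such genes. All 3 mutant arrays lay above all 3 control arrays for 11 Hox genes and below them for 6, which is 45.9% of the 37 against 30.9% of all genes. All log2 changes ran from -0.76 to 0.73, so no Hox gene changed as much as 2-fold in either direction, whereas Pdx1, whose promoter drives Cre, had a log2 change of -4.16 on the same arrays.

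**Figure D1:**
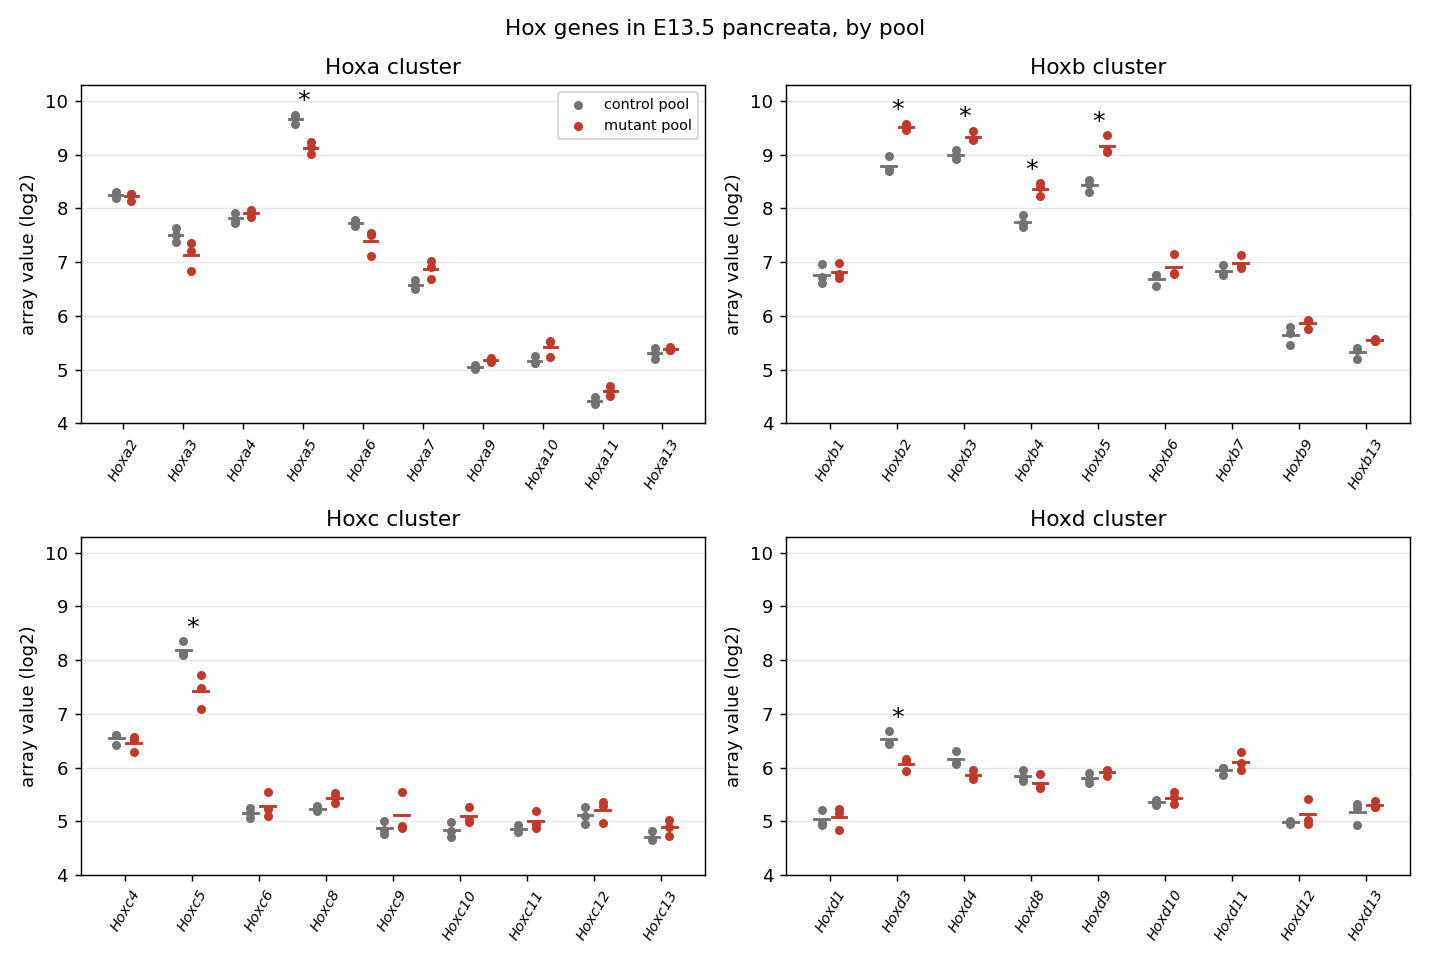
Array values (log2) of the 37 Hox genes by cluster and gene, with 1 point per pool (grey, 3 control pools; red, 3 mutant pools), a line at each mean and a star on genes with a limma adjusted p under 0.05. The points of Hoxb2 to Hoxb5 lie higher in the mutant pools without overlap, and those of Hoxa5, Hoxc5 and Hoxd3 lie lower without overlap.

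Hoxb2, known for its role in the hindbrain, had values of 8.73, 8.69 and 8.97 in controls and 9.46, 9.53 and 9.58 in mutants, where values are log2 array values in the order of the pool numbers. The lowest mutant pool lay above the highest control pool, and the log2 change was 0.73 (standard error 0.10, 95% interval 0.50 to 0.96, limma adjusted p = 0.000916). Hoxb5, which acts in lung and in the enteric nervous system, had values of 8.31, 8.52 and 8.46 in controls and 9.07, 9.06 and 9.36 in mutants. Its groups did not overlap either, with a log2 change of 0.73 (standard error 0.11, limma adjusted p = 0.0015). Hoxb4, best known from blood stem cells, had values of 7.87, 7.73 and 7.65 in controls and 8.23, 8.41 and 8.47 in mutants. All 3 mutant pools were above all 3 control pools, with a log2 change of 0.62 (standard error 0.10, limma adjusted p = 0.00267).

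Hoxb3 had values of 8.93, 8.99 and 9.09 in controls and 9.27, 9.29 and 9.45 in mutants. The groups were separate but the gap between them was the narrowest of these 4 genes, and the log2 change was 0.33 (standard error 0.10, limma adjusted p = 0.0459). The call on Hoxb3 was lost without any 1 of the 6 arrays, where its adjusted p from limma lay between 0.0582 (without mutant pool 2) and 0.165 (without control pool 1) and its log2 change between 0.28 and 0.38, whereas Hoxb2, Hoxb4 and Hoxb5 passed under each of the 16 alternatives run for single genes. In the RefSeq annotation the spans of Hoxb3 and Hoxb4 overlap, so their rows could share transcripts.

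The other 5 Hoxb genes did not pass the test. Hoxb1, the first gene of the cluster, had values of 6.96, 6.61 and 6.72 in controls and 6.77, 6.99 and 6.70 in mutants, which overlap throughout, with a log2 change of 0.06 (standard error 0.12, limma adjusted p = 0.839). Hoxb6, Hoxb7, Hoxb9 and Hoxb13 had log2 changes of 0.21, 0.15, 0.22 and 0.22. The pools of Hoxb6 did not overlap (6.75, 6.76 and 6.56 against 6.77, 7.14 and 6.79), and neither did those of Hoxb13 (5.41, 5.36 and 5.20 against 5.53, 5.53 and 5.56). All 9 Hoxb genes had a positive change and their median was 0.22, although that of Hoxb1 turned negative under 3 alternatives, without control pool 2 (-0.02), without mutant pool 2 (-0.03) and with array weights (-0.05).

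Hoxa5, which is needed in the mesenchyme of the lung, stomach and gut, had values of 9.68, 9.56 and 9.74 in controls and 9.01, 9.15 and 9.24 in mutants. The highest mutant pool lay below the lowest control pool, and the log2 change was -0.53 (standard error 0.10, 95% interval -0.76 to -0.31, limma adjusted p = 0.00533), which held under each of the 16 alternatives. Hoxc5, its paralog in the Hoxc cluster, had values of 8.09, 8.36 and 8.14 in controls and 7.10, 7.73 and 7.47 in mutants. The groups were separate, the mutant pools differed more among themselves (SD 0.318, n = 3) than the control pools (SD 0.143, n = 3), and the log2 change was -0.76 (standard error 0.15, limma adjusted p = 0.00797). Hoxd3, which patterns the cervical vertebrae, had values of 6.67, 6.46 and 6.44 in controls and 5.94, 6.16 and 6.12 in mutants. All 3 mutant pools were below all 3 control pools, and the log2 change was -0.45 (standard error 0.11, limma adjusted p = 0.0171). The call on Hoxd3 was lost without control pool 1 (log2 change -0.38, adjusted p = 0.0764 from limma) and without mutant pool 1 (-0.39, adjusted p = 0.0903 from limma), and the spans of Hoxd3 and Hoxd4 overlap in RefSeq, as do those of Hoxa3 with Hoxa4, Hoxa5 and Hoxa6.

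A further 3 genes had mutant pools wholly below the control pools without passing the test. Hoxa3, which acts in the pharyngeal arches, had values of 7.63, 7.50 and 7.37 in controls and 6.83, 7.20 and 7.35 in mutants. The highest mutant pool almost reached the lowest control pool, and the log2 change was -0.37 (standard error 0.14, limma adjusted p = 0.12). Hoxa6 had values of 7.76, 7.78 and 7.67 in controls and 7.12, 7.54 and 7.50 in mutants, with a log2 change of -0.35 (standard error 0.12, limma adjusted p = 0.0943). Hoxd4 had values of 6.30, 6.07 and 6.09 in controls and 5.85, 5.96 and 5.78 in mutants, with a log2 change of -0.29 (standard error 0.10, limma adjusted p = 0.0989). Each of these 3 genes was called lower when arrays were weighted by their quality, and Hoxa6 and Hoxd4 at a threshold of 0.1. Over all genes, the weights called 27.3% and the threshold of 0.1 called 18.7%, against 14.1% without either.

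By cluster, the Hoxb genes were 4 higher and 0 lower of 9, the Hoxa genes 0 higher and 1 lower of 10 (median log2 change 0.08), the Hoxc genes 0 higher and 1 lower of 9 (median 0.14) and the Hoxd genes 0 higher and 1 lower of 9 (median 0.08). By position, 2 of the 7 anterior genes were higher and 1 was lower (median 0.04, which lay between -0.03 and 0.08 when single arrays were left out and so had no settled sign), 2 of the 14 central genes were higher and 2 were lower (median 0.12), and 0 of the 16 posterior genes were called in either direction. The plot of log2 change against paralog group shows that the calls lay in groups 2 to 5. In those groups, a range taken from where the calls fell and so given as a description, the 4 Hoxb genes were called higher, and of the 8 genes of the other clusters 3 were called lower and 0 higher, with a median log2 change of -0.33. Hoxa4 was the only one of these 8 with a positive change, of 0.10 (limma adjusted p = 0.606), and Hoxa2 and Hoxc4 had log2 changes of -0.03 and -0.08.

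**Figure D2:**
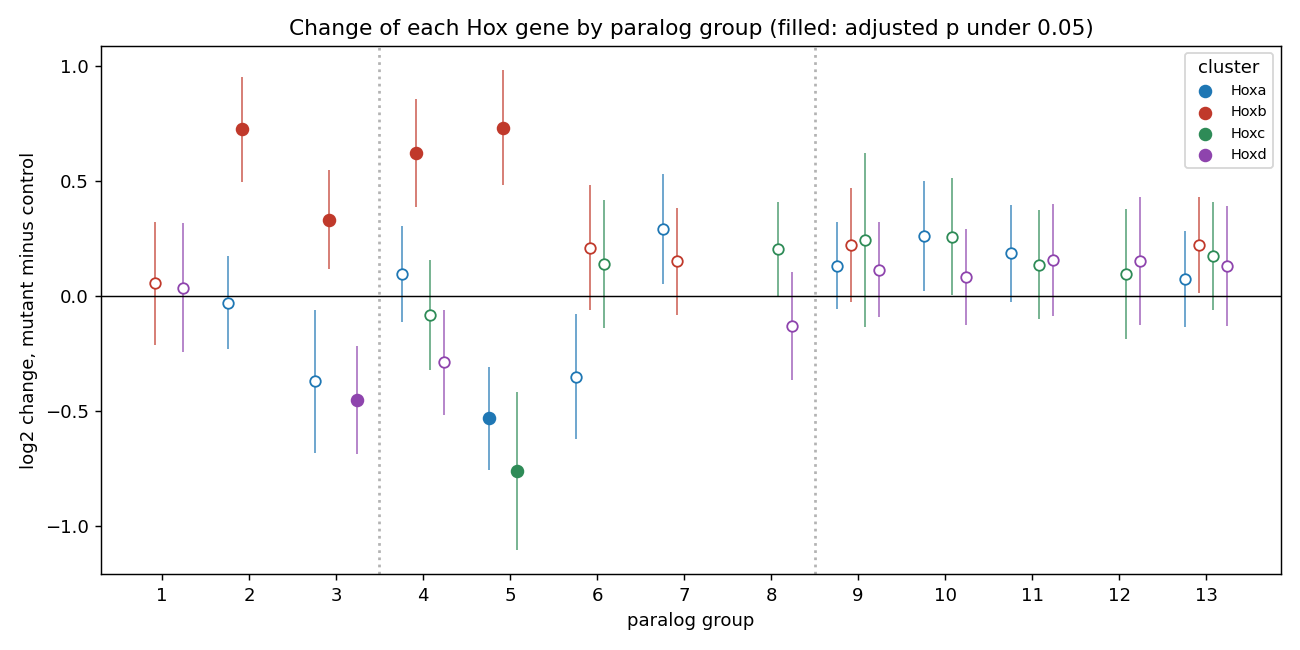
Log2 change (mutant minus control) of each Hox gene on the vertical axis by paralog group on the horizontal axis, with 95% intervals, coloured by cluster, filled where the limma adjusted p was under 0.05 and open otherwise; dotted lines part anterior, central and posterior groups. Filled points appear in groups 2 to 5 alone, above 0 for Hoxb and below 0 for the other clusters, and all 16 posterior points lie above 0.

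Paralogs with the same number were called in opposite directions in groups 3 and 5. Pairs with a gene that was not called also moved apart. The difference between Hoxb4 and Hoxd4, taken within each array, changed by 0.91 and that between Hoxa6 and Hoxb6 by -0.56, both without overlap. In group 5 all 3 measured genes passed the test: Hoxb5 rose while Hoxa5 and Hoxc5 fell. Taken within each array, the difference between Hoxb5 and Hoxc5 was 0.22, 0.16 and 0.33 in controls and 1.98, 1.33 and 1.89 in mutants. The change of that difference was 1.49 on the log2 scale, and the groups did not overlap. The difference between Hoxa5 and Hoxb5 changed by -1.26, from 1.37, 1.04 and 1.28 in the control pools to -0.07, 0.09 and -0.12 in the mutant pools, and that between Hoxa5 and Hoxc5 by 0.23 with overlapping groups. In group 3, Hoxb3 rose and Hoxd3 fell, their difference changed by 0.78 without overlap, and Hoxa3 moved by nearly as much as Hoxd3, the difference between them changing by 0.08. These differences set changes side by side and not levels, since the probes of different genes do not respond alike. Where all mutant pools lay above the control pools for 1 gene of a pair and below them for the other, the difference could not overlap. Its separation then adds nothing to the values of the single genes.

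**Figure D3:**
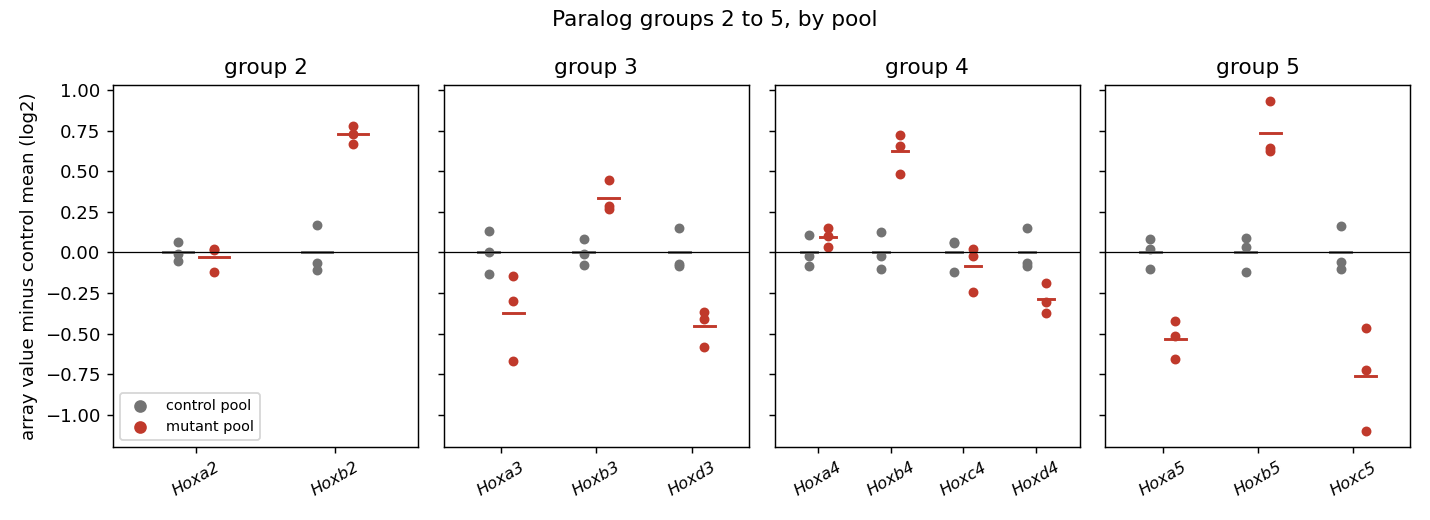
Array value of each pool minus the control mean of its gene (log2, vertical axis) for the genes of paralog groups 2, 3, 4 and 5 (horizontal axis), with 1 point per pool (grey, control; red, mutant) and a line at each mean. The Hoxb gene of each group lies above 0 in all 3 mutant pools, and Hoxa5, Hoxc5, Hoxa3 and Hoxd3 lie below 0 in all 3.

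The posterior genes, which are expressed in the hindgut, limb buds and urogenital region at this age, all had small positive changes. The 16 log2 changes lay between 0.07 (Hoxa13) and 0.26 (Hoxa10), with a median of 0.16. None passed the test (smallest limma adjusted p = 0.157, for Hoxa10), Hoxa10, Hoxb13 and Hoxc10 had an unadjusted limma p under 0.05, and the pools of the 2 genotypes overlapped for 12 of the 16, leaving 4 (25%) separate. Hoxa10 had values of 5.24, 5.13 and 5.12 in controls and 5.23, 5.53 and 5.51 in mutants. Hoxc10 had values of 4.81, 4.98 and 4.70 in controls and 5.26, 4.99 and 5.02 in mutants, which were just separate. Hoxc9 ranged from 4.76 to 5.54 over the 6 pools and was high in mutant pool 2 alone.

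All 16 posterior genes kept a positive change under each alternative in which they were tested, other scalings of the arrays included. Among the 4438 genes whose mean array value lay in the range of these 16, 3.20% were called higher, 3.90% were called lower, 19.3% had separate pools, the median log2 change was 0.04 and 60.3% were positive, so the posterior counts of calls and of separate pools lie near this background. The array values of 13 of the 16 were under the lower quartile of all gene means (5.44, log2). No detection calls were used, so it is not known which of these rows were above background.

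The remaining genes, of central groups or group 1, lay between these. Hoxa7 had values of 6.67, 6.57 and 6.50 in controls and 6.69, 7.01 and 6.91 in mutants, separate by little, with a log2 change of 0.29 (standard error 0.11, limma adjusted p = 0.115). Hoxc8 had log2 change 0.20 with separate pools (limma adjusted p = 0.199), Hoxc6 had 0.14, Hoxd1 had 0.04 and Hoxd8 had -0.13, all 3 with overlapping pools. Across the 37 genes the log2 change and the paralog number had a Pearson r of 0.17 and a Spearman rho of 0.25. Within clusters r was 0.52 in Hoxa, 0.56 in Hoxc and 0.69 in Hoxd, and -0.30 in Hoxb. The matching Spearman rho was 0.55 in Hoxa, 0.37 in Hoxc and 0.82 in Hoxd, and -0.13 in Hoxb. The mean array value had an r of -0.68 with the paralog number over the 37 genes. With the log2 change its r was -0.03 over the 37 genes. Within clusters that r was -0.71 in Hoxa, 0.73 in Hoxb, -0.95 in Hoxc and -0.64 in Hoxd. Of the 9 Hoxc genes, 8 lay under the median of all gene means and 7 under the lower quartile. Hoxc5 alone lay above the median, and the r without Hoxc5 was not computed. These correlations are across genes that are neighbours and share arrays, and are given as a description. Within the mutant group, pool 1 had the lowest value for 20 of the 37 Hox genes, against 23% of all genes, and pool 2 the highest for 20, against 38.9% of all genes.

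The genes on either side of the clusters were compared to see whether a change reached past the Hox genes. Of the 40 nearest tested genes, 5 on each side of each cluster with the Evx genes left out, 1 was called higher and 0 lower, fewer than the shares of 6.59% and 7.53% over all genes, and their median log2 change was 0.02. The gene called was Skap1, an adaptor of T cell receptor signalling on the anterior side of Hoxb, with values of 5.43, 5.59 and 5.44 in controls and 6.15, 5.97 and 5.79 in mutants. Its log2 change was 0.49 (standard error 0.11, limma adjusted p = 0.0153), and the call was lost without control pool 1, control pool 3 or mutant pool 1 and with every row in the fit, where the adjusted p from limma was at most 0.0776. The 10 neighbours of Hoxb had a median log2 change of 0.05.

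Evx1, an even-skipped homeobox gene that lies past Hoxa13 at the posterior end of the Hoxa cluster, changed more than any of the 37 Hox genes. It had values of 6.44, 6.37 and 6.39 in controls and 7.94, 7.35 and 7.77 in mutants. The groups lay far apart, with a log2 change of 1.29 (standard error 0.14, limma adjusted p = 0.000182), while Hoxa13, the Hox gene next to it, had a log2 change of 0.07. Evx2, which has the matching place beside Hoxd13, had a log2 change of -0.06 (standard error 0.09, limma adjusted p = 0.753).

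**Figure D4:**
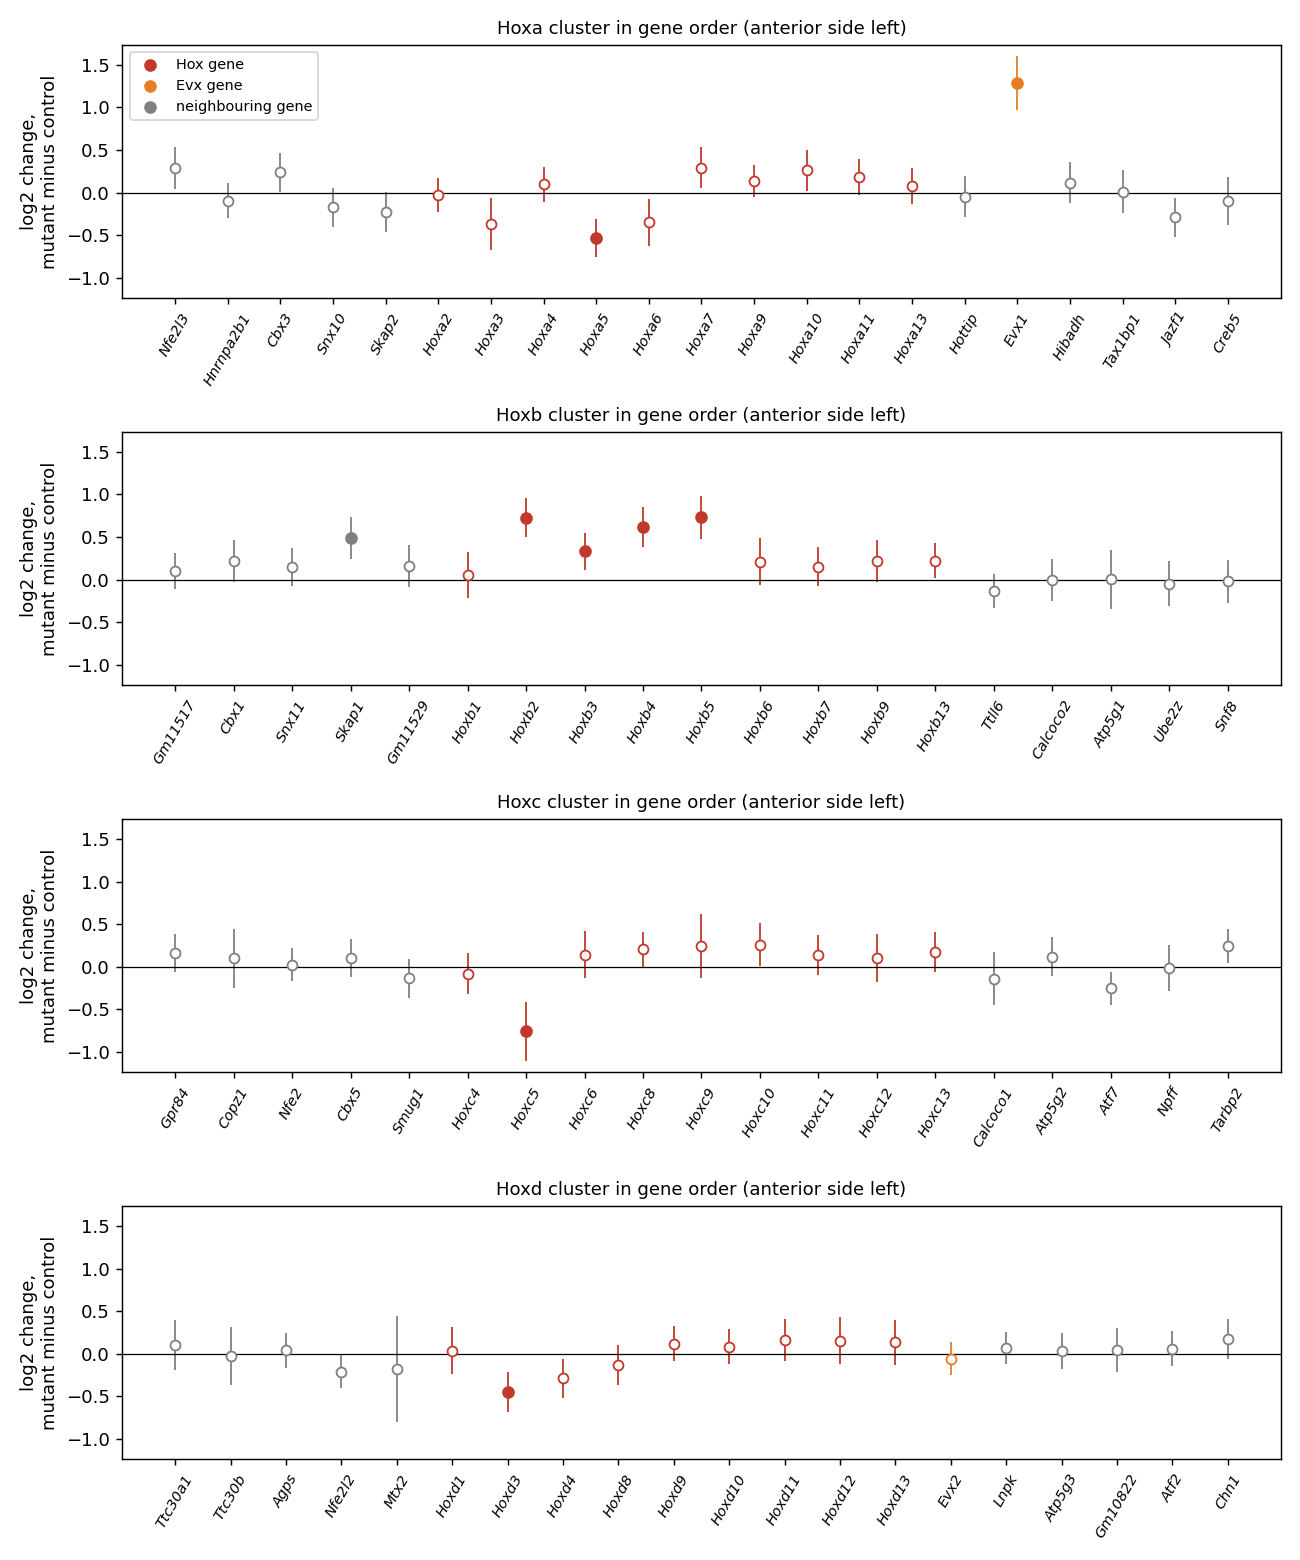
Log2 change (mutant minus control, vertical axis) with 95% intervals of the genes of each cluster, the Evx genes and the 5 nearest tested genes on each side, in gene order from the anterior side (horizontal axis); points are filled where the limma adjusted p was under 0.05, and genes without a row of their own are left out. Hoxb2 to Hoxb5 are a run of 4 filled points above 0, Evx1 stands above the Hoxa genes at 1.29, and Skap1 is the 1 filled neighbour.

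The lists of genes that follow are to be read against the 6.59% called higher and 7.53% called lower over all genes. Among the genes that help HOX proteins bind DNA, 2 of the 8 measured TALE genes (25%, of 9 listed) were called higher and 0 lower. Pknox2, of the PREP family, had values of 8.35, 7.51 and 7.75 in controls and 8.99, 8.97 and 8.79 in mutants, with a log2 change of 1.05 (standard error 0.19, limma adjusted p = 0.00372). Pbx3 had values of 10.64, 10.62 and 10.65 in controls and 11.08, 11.07 and 11.16 in mutants, with a log2 change of 0.47 (standard error 0.09, limma adjusted p = 0.00435). Both genes had separate groups and passed under each of their 16 alternatives. Meis1 and Meis2 had log2 changes of -0.09 and 0.15 and did not pass.

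Among the relatives of the clusters, the ParaHox and Evx genes and Mnx1, 2 of 9 (22.2%) were higher and 2 (22.2%) lower. Cdx2, an activator of Hox genes and of the intestinal programme, had values of 5.93, 5.90 and 5.89 in controls and 7.05, 6.79 and 6.80 in mutants. Its log2 change was 0.97 (standard error 0.10, limma adjusted p = 0.000121), while Cdx1 and Cdx4 had log2 changes of 0.11 and 0.38 and did not pass. Pdx1, itself a ParaHox gene, fell from 9.87, 9.95 and 9.97 to 5.86, 5.87 and 5.59, and Mnx1, a homeobox gene of the early pancreatic bud, had a log2 change of -0.80 (standard error 0.12, limma adjusted p = 0.00167).

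Of the retinoic acid pathway, which sets the anterior Hox domains, 6 of the 17 measured genes (35.3%, of 18 listed) were higher and 1 (5.88%) was lower, and the median log2 change was 0.18. Crabp1, a retinoic acid binding protein, had a log2 change of 1.12 (standard error 0.13, limma adjusted p = 0.000258), and Stra6, a retinol uptake receptor, one of 0.86 (standard error 0.16, limma adjusted p = 0.00517). Rarg, a retinoic acid receptor, had a log2 change of 0.63 (standard error 0.11, limma adjusted p = 0.00428), while Rxrg, a retinoid X receptor, had one of -0.89 (standard error 0.12, limma adjusted p = 0.000533). All 4 kept their call under each of their 16 alternatives. Of the genes of retinoic acid synthesis, Aldh1a3 and Rdh10 were called higher, with log2 changes of 0.30 and 0.44 (limma adjusted p = 0.0397 and 0.0451). These 2 calls were not followed under the alternatives. Aldh1a1 and Aldh1a2 had log2 changes of 0.03 and 0.35 and did not pass. Cyp26a1, Cyp26b1 and Cyp26c1, which break retinoic acid down, had log2 changes of 0.07, -0.02 and 0.35. The pools of Cyp26c1 were separate, but it did not pass (limma adjusted p = 0.0775).

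Of the 8 measured signals and timing factors of the clusters (of 11 listed), Fgf8 was called higher with a log2 change of 0.42 (standard error 0.10, limma adjusted p = 0.0168) and Nr6a1, a nuclear receptor of trunk development, was called lower with one of -0.49 (standard error 0.11, limma adjusted p = 0.0112). Both calls were lost without control pool 1 (adjusted p from limma 0.0705 and 0.0502) and with every row in the fit (0.0601 and 0.0504), and that of Fgf8 also without mutant pool 3 (0.0626). Of the 17 measured Polycomb genes (of 18 listed) 2 (11.8%) were higher, Pcgf1 and Jarid2, and 2 (11.8%) lower, Cbx7 and Phc3, with log2 changes of 0.53, 0.42, -0.40 and -0.37. Ezh2, the H3K27 methyltransferase of the complex, had a log2 change of 0.13 (limma adjusted p = 0.429). Of the 11 trithorax genes and H3K27 demethylases Psip1 was higher and Kdm6a lower (9.09% each), by log2 changes of 0.39 and -0.34. Each of these 6 calls on Polycomb and trithorax genes was lost without at least 1 array, with adjusted p from limma of up to 0.141 for Pcgf1 (without mutant pool 3), 0.0614 for Jarid2 (without mutant pool 1), 0.0559 for Cbx7 (without mutant pool 3), 0.0764 for Phc3 (without mutant pool 1), 0.127 for Psip1 (without control pool 1) and 0.113 for Kdm6a (without control pool 1).

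**Figure D5:**
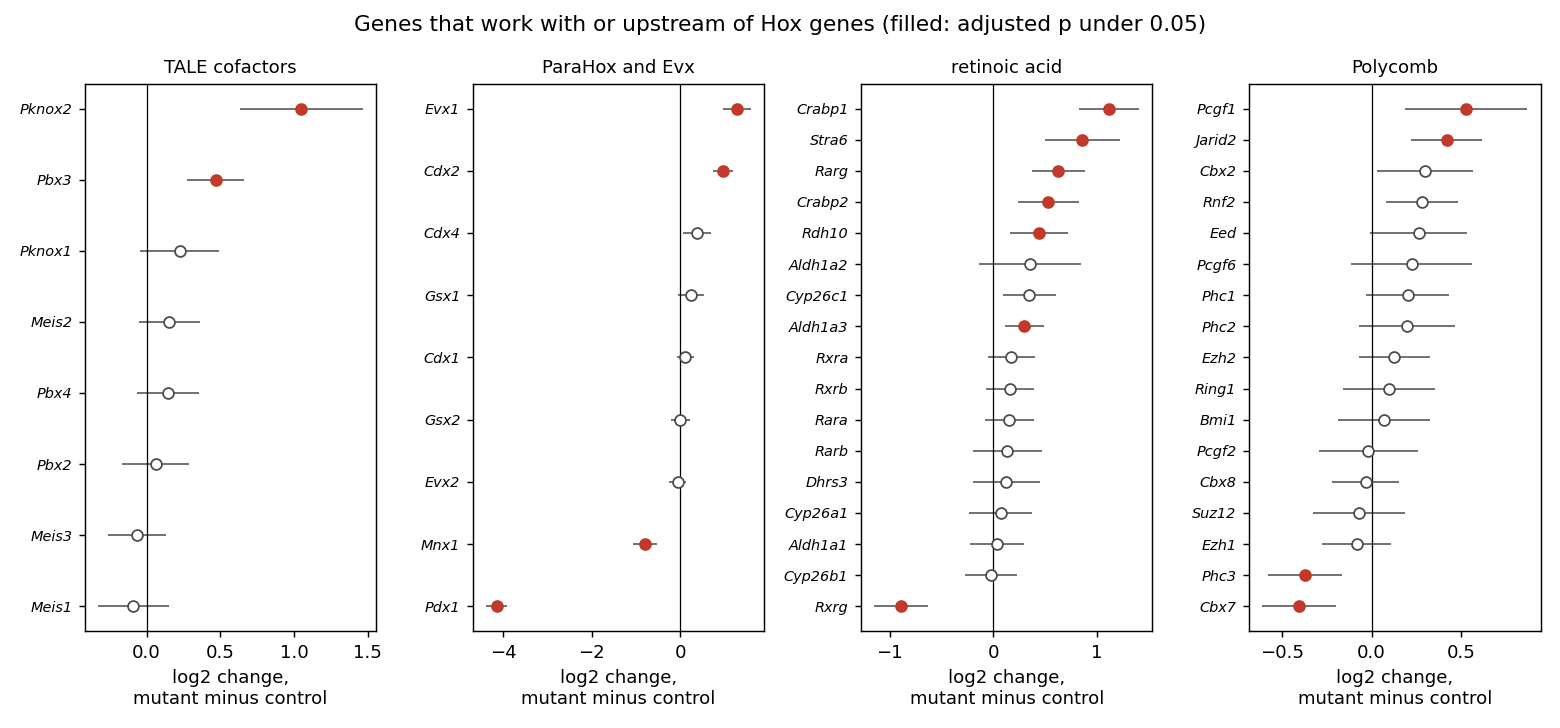
Log2 change (mutant minus control, horizontal axis) with 95% intervals of each measured gene (vertical axis) of the TALE cofactors, the ParaHox and Evx genes with Mnx1, the retinoic acid pathway and Polycomb, filled where the limma adjusted p was under 0.05; the horizontal scale differs between panels. Pknox2, Evx1, Cdx2 and Crabp1 have filled points near or above 1, and Pdx1 lies at -4.16.

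Markers of several cell types in the organ moved with the genotype as well. Of 9 pancreatic epithelial markers 8 were lower and 0 higher in the mutant pools, and their mean log2 value per pool was 10.48 to 10.66 in the controls and 8.49 to 8.62 in the mutants. Of 8 visceral mesenchyme markers 6 were higher and 1 lower, with pool means of 8.37 to 8.45 and 9.61 to 9.94. Foxf2, a defining gene of the mesenchyme of the gut wall, went from 5.48, 5.35 and 5.25 to 9.58, 8.86 and 9.66. Of 9 general mesenchyme markers 3 were higher and 2 lower, with pool means of 10.16 to 10.34 and 10.02 to 10.19, which overlap. The largest change in this list was that of Prrx1, at -2.49 on the log2 scale (standard error 0.14, limma adjusted p = 2.1e-06). That call held under each of its 16 alternatives. No general mesenchyme marker rose by more than 0.84. The calls on Lum and Col1a1 were lost under 6 and 4 of their 16 alternatives, and that on Twist1 under 1 of 15. Of the 6 measured genes listed for neural crest and neurons (of 8 listed) 6 were lower, with pool means of 7.45 to 7.53 and 6.19 to 6.30. They were Ret, Dcx, Phox2a, Tubb3, Sox10 and Elavl4, with log2 changes of -2.59, -2.32, -0.83, -0.66, -0.61 and -0.57. Whether nerves alone expressed these genes was not tested. Of 6 mesothelial markers 4 were lower, with pool means of 8.10 to 8.34 and 7.58 to 7.89. The calls on Upk3b and Wt1 were lost under 7 and 6 of their 16 alternatives, and those on Lrrn4 and Krt19 under 0. Wt1 is also the visceral mesenchyme marker that was lower. In the other lists, 1 of 3 spleen markers (of 4 listed), 1 of 6 endothelial and 1 of 5 blood markers (of 6 listed) were higher. The endothelial call, on Cdh5, was lost under 9 of its 16 alternatives and the blood call, on Hbb-bh1, under 6 of 16. That on the spleen marker Nkx2-5 was lost under 0. Of 5 mesonephros markers 2 were lower. Pool means in controls and mutants were 8.41 to 8.84 and 8.87 to 8.89 for spleen, and 9.30 to 9.46 and 9.555 to 9.67 for endothelium. They were 7.61 to 7.75 and 7.80 to 7.93 for blood, and 7.03 to 7.10 and 6.62 to 6.72 for mesonephros. No marker was listed at 0. Their part in the changes of the Hox genes was not tested, and Ctnnb1, whose row reads the whole transcript, does not check the loss of exon 3 (log2 change 0.28, limma adjusted p = 0.148).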

How the data were processed

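RNA of 6 pools, 3 per genotype and each of 3 pancreata, was measured on 1 array each, and genotype and number were taken from the labels. The values as deposited by the authors are on a log2 scale, 1 per array row, and the authors name limma for their statistics. How background was corrected and how probes were summarized and normalized is not stated in the sources read. Array medians were 6.37 to 6.47, and arrays correlated at 0.993 to 0.997 within and 0.973 to 0.979 between genotypes. The number of arrays limits the precision, and as the labels call the pools biological replicates, p-values measure the spread between pools.

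Of 35556 rows, 21789 had 1 symbol in the platform annotation, 1621 had several and 12146 had none. Rows with 1 symbol were tested, the row with the highest mean being used for the 999 genes with several. Mutant was compared with control over 19938 genes in R 4.3.3 by limma 3.58.1 (lmFit, then eBayes, without covariates), and p-values were adjusted by Benjamini-Hochberg and called under 0.05. The step was tested on simulated data. Figures were drawn with matplotlib 3.10.9 in Python 3.11.15.

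The members and lists were chosen with earlier results of these data known. Named genes are every Hox gene, Ctnnb1, called neighbours, and of each list up to 4 members with the largest change among those called, or otherwise the one with the smallest p. Meis1, Meis2, Evx2, Cdx1, Cdx4, Cyp26a1, Cyp26b1, Cyp26c1, Aldh1a1, Aldh1a2, Aldh1a3, Rdh10, Ezh2, Sox10 and Elavl4 were named after their values were seen. The alternatives tried were a replicate block, leaving out each array, other scalings, filters, row rules, priors, array weights, thresholds and positions. RefSeq GRCm38.p6 gave sequences, gene order and spans, as the array values name no build.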

Additional observations from a re-analysis of the deposited data

How the results depend on the processing

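Of the 82 single genes followed, over 1256 alternative values, 1145 kept their direction and call, 92 lost a call, 8 gained one and 11 turned direction, all of these in genes without a call: Hoxa2 (0.003072 without control pool 1, 0.01805 without mutant pool 2, against -0.0555 without control pool 3, the lowest when an array was left out, 0.009463 with arrays centred on the median), Hoxb1 (-0.01935 without control pool 2, -0.02758 without mutant pool 2, highest 0.1523 without control pool 1, -0.0468 with array weights), Hoxc6 (-0.05812 with array weights) and Hoxd1 (-0.0162 without control pool 3, -0.03882 without mutant pool 2, -0.00055 without mutant pool 3, highest 0.15 without mutant pool 1, -0.1231 with array weights). Same-numbered pools did not deviate together (r of 0.014, -0.154 and -0.0464). The labels do not say whether same-numbered pools belong together, and these values cannot exclude it. With the replicate number as a block 5 Hox genes were called, Hoxb3 and Hoxd3 being lost. This left 1 anterior gene higher, 0 anterior lower and 0 Hoxd lower. With array weights the counts were 7 Hox genes higher and 6 lower (1 and 3 in Hoxa, 2 higher in Hoxc, 2 lower in Hoxd, 2 anterior and 4 central lower, 2 posterior higher), 3025 genes higher and 2422 lower of all tested, and medians of 0.07261 (all Hox), 0.05177 (Hoxa), 0.007245 (central) and 0.08252 (posterior). With the fit run over every row 1 Hox gene was lower, of the central group, with 0 in Hoxc, 0 in Hoxd and 0 anterior, 1 anterior gene was higher, and 751 genes were higher over all; Hoxc5 then had an adjusted p of 0.053. A threshold of 0.1 gave 5 Hox genes lower (2 in Hoxa, 2 in Hoxd, 4 central), and one of 0.01 gave 723 genes higher in all, 1 anterior gene higher, 0 anterior lower and 0 Hoxd lower. With genes above the median level the medians were 0.0335 (all Hox), -0.3501 (Hoxa), 0.6739 (Hoxb), -0.761 (Hoxc), 0.1525 (anterior) and -0.1275 (central), with 0 lower in Hoxd and 0 anterior lower; above the lower quartile they were -0.1891 (Hoxa), 0.2768 (Hoxb), -0.4215 (Hoxc), -0.1298 (Hoxd) and 0.006593 (central). Fewer genes pass these filters, 10 and 21 of the 37. The medians of Hoxa and Hoxb were 0.1221 and 0.2599 with arrays centred on the median, 0.05079 and 0.1885 centred on 11 housekeeping genes (of which 2 were higher and 1 lower), and 0.1066 and 0.2634 after quantile normalization; the housekeeping genes left 1 anterior gene higher. These scalings moved the median of all genes to between -0.000924 and 0.0704, from 0.0329. Positions parted at group 4 left 1 central gene higher. Leaving out each array gave 843 (without mutant pool 1) to 1328 genes higher, 0 to 1 Hoxd genes lower, 1 anterior gene higher and 0 to 1 lower, and medians of 0.03563 to 0.1287 (Hoxa), 0.1601 to 0.2955 (Hoxb), 0.04644 to 0.189 (Hoxc), 0.01261 to 0.1465 (Hoxd), 0.04518 to 0.1687 (central) and -0.02758 to 0.08055 (anterior), the last also being -0.0468 with array weights. Where no construction is named, the cause was not tested. Depth is limited by the number of arrays.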

Other observations

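Some rows named for the Hox clusters fell outside the rule and were looked at after the values of the members were seen. In a fit over all rows of the table, 1 row shared by Hoxb8 and Hoxb7 had values of 6.71, 6.96 and 6.58 (log2 units) in controls and 7.18, 7.42 and 7.48 in mutants, with a log2 change of 0.61 (standard error 0.13, limma adjusted p = 0.0488). Its mutant pools all lay above its control pools, whereas the row of Hoxb7 alone had a log2 change of 0.15 and overlapping pools. The shared row cannot be given to either gene. Of the members called in the main fit, Hoxb3, Hoxc5 and Hoxd3 were not called in this fit over all rows. The noncoding RNAs of the clusters did not pass the test in that fit: the 2 rows of Hoxd3os1 had log2 changes of 0.06 and 0.15, Hoxaas2 had 0.03 and Hottip, at the posterior end of Hoxa near Evx1, had -0.05.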
